A study of Mus musculus with 16 samples.

Results

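Oxidative phosphorylation is carried out in the inner mitochondrial membrane by 5 complexes. Complexes I to IV pass electrons from NADH and succinate to oxygen, and complexes I, III and IV pump protons. Complex V, the ATP synthase, uses the proton gradient to make ATP. Complexes I, III, IV and V are built from subunits of both the nuclear and the mitochondrial genome, whereas complex II is encoded by the nucleus alone, so the assembly of the chain needs both genomes. Astrocytes and microglia, the resident macrophages of the brain, can both draw on glycolysis as well as on this chain. The genes described here are the structural subunits of the 5 complexes, chosen by gene name (the Ndufa, Ndufb, Ndufc, Ndufs and Ndufv series, Sdha to Sdhd, the Uqcr genes, Cyc1, the Cox4 to Cox8 series, the Atp5 genes, and the protein genes of the mitochondrial genome), with names marked -ps left out. The rule took 105 of the 56989 genes in the count tables, 92 nuclear and 13 mitochondrial. Complexes were assigned by gene name, so Ndufa4, known as a complex IV subunit, and its relative Ndufa4l2 are counted under complex I. Complex I has 42 nuclear and 7 mitochondrial members, complex II has 4 nuclear members, complex III has 9 and 1, complex IV has 19 and 3, and complex V has 18 and 2. Of the 105, 100 are annotated as protein coding, 4 as processed pseudogenes (Cox6c2, Ndufa11b, Ndufb4c, Ndufs6b) and 1, Ndufb1, as a bidirectional promoter lncRNA. After the filter on low counts, 98 members were tested in microglia and 99 in astrocytes.

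The 16 RNA-seq libraries are of mouse microglia and of mouse astrocytes, 2 libraries for each of 4 genotypes. WT is the wild type, CKO is a conditional knockout of Rack1, a ribosome-bound scaffold protein, AD WT is a mouse model of Alzheimer's disease with Rack1 intact, and AD CKO is the same model with the knockout. The series' design text places the knockout in microglia, so the astrocyte libraries named CKO come from mice with a microglial knockout. The labels used here do not name the Alzheimer's model, the Cre driver, the age of the mice or the isolation method, and do not say that replicates are different mice. The p-values therefore measure the spread between these libraries, which may be technical. Total counts ran from 27741882 to 35851170 per library. In microglia Rack1 was at 98.1 and 95.2 CPM (counts scaled to the library's size) in the WT libraries and at 40.4 and 42.0 in the CKO libraries, and at 113 and 115 in AD WT and 47.2 and 47.8 in AD CKO. Its log2 difference was -1.23 ± 0.06 for CKO against WT and -1.26 ± 0.06 for AD CKO against AD WT. In astrocytes Rack1 differed by 0.74 ± 0.06 for CKO against WT and by -0.47 ± 0.06 for AD CKO against AD WT. The 10 microglia markers summed to 26434 to 49992 CPM in the microglia libraries and to 511 to 1349 CPM in the astrocyte libraries, while the 10 astrocyte markers summed to 449 to 641 and to 11854 to 26977 CPM. The oligodendrocyte markers summed to 2268 to 8631 CPM in the microglia libraries and to 6961 to 19232 CPM in the astrocyte libraries. In bulk RNA of this kind, fewer cells of a type and less RNA per cell cannot be told apart. Throughout, CPM values are given as replicate 1 and then replicate 2, ± after a log2 difference is its standard error from edgeR's quasi-likelihood fit with n = 2 libraries per group, and a gene "rose" or "fell" where the adjusted p of that fit, taken over all genes tested, was under 0.05. The largest differences named are those among members that passed with a mean of at least 5 CPM. Outside the interactions their 2 groups were also required not to overlap, so their not overlapping is no further evidence.

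Of the 13 mitochondrial members 7 have a copy on chromosome 1 of at least 99% identity (mt-Co1, mt-Co2, mt-Co3, mt-Nd3, mt-Nd4, mt-Nd4l and mt-Atp6), and for 5 of these, all but mt-Nd4 and mt-Atp6, a sizeable share of the counts stood on the copy. The copy Gm28437 (mm10, chr1:24613189-24613971) matches mt-Co3, a core subunit of cytochrome c oxidase (chrM:8607-9390), over 783 bases with 0 differences. The copy Gm28438 matches mt-Nd3, a membrane subunit of complex I, over 345 bases with 1 difference. The first bases of both pairs are shown because a short read from them cannot, or can only at that base, be assigned to 1 of the genes. Capitals mark the difference T3C, counted from the first base of mt-Nd3.
mt-Co3: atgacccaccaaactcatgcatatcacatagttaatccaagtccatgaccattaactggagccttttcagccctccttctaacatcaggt
Gm28437: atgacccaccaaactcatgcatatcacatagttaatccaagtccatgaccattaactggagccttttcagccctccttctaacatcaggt
mt-Nd3: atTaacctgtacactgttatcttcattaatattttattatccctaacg
Gm28438: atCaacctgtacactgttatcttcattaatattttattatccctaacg
The authors' counts placed 91.3% to 98.0% of the counts of the mt-Co3 pair on the copy, depending on the library. In the microglia libraries mt-Co3 itself had 209 and 124 CPM in WT, 201 and 64.6 in CKO, 151 and 183 in AD WT and 155 and 57.2 in AD CKO. With the copy added, the same libraries had 2391 and 2212, 3505 and 3303, 2301 and 2315, and 2488 and 2438 CPM. The deposited mt-Co3 row alone did not separate any 2 microglia groups, while gene plus copy was higher in both CKO libraries than in the other 6. The copies of mt-Nd3 held 61.6% to 79.6% of their pair, those of mt-Nd4l 84.8% to 100% and those of mt-Co2 10.4% to 47.6%. For Gm29216, which matches mt-Co1 at 99.8% over 483 bases, the share was 13.4% to 20.7%, and for the copies of mt-Atp6 and mt-Nd4 it was at or near 0. Below, call counts, sums and values of the mitochondrial members are those of the deposited rows unless copies are said to be added, and mt-Nd4l, with at most 3.29 CPM of its own in any library, is given no fold of its own.

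**Figure D1:**
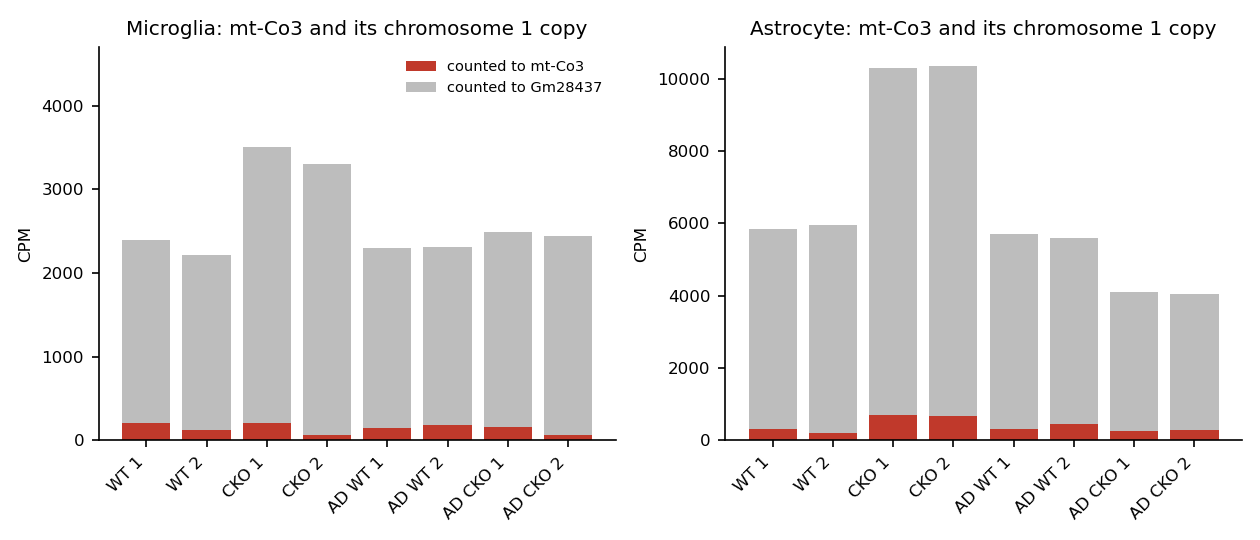
Stacked bars give the CPM of mt-Co3 and of its chromosome 1 copy Gm28437 in each of the 16 libraries, microglia and astrocytes in separate panels. The copy holds 91.3% to 98.0% of each bar, and the whole bar is highest in the 2 CKO libraries of each cell type.

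The genes mt-Atp8 and mt-Atp6, both subunits of the proton channel part of complex V, overlap on the mitochondrial genome, and are shown because a read from the overlap matches either. The 43 shared bases, from base 162 of mt-Atp8, are in capitals.
mt-Atp8, bases 115 to 204: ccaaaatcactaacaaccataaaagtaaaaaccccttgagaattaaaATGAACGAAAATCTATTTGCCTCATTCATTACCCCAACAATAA
mt-Atp6, bases 1 to 90: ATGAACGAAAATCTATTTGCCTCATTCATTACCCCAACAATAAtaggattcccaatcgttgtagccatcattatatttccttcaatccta
In WT microglia mt-Atp8 had 13.9 and 8.78 CPM against 1436 and 1305 for mt-Atp6. In WT astrocytes the values were 22.6 and 31.4 against 3148 and 3327. How the counting treated this overlap is not given in the sources used here.

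The wild-type levels of the 2 cell types were compared first. Nearly the whole chain was lower in the microglia libraries than in the astrocyte libraries. In one fit over all 16 libraries, 82 of the 86 nuclear members tested were lower in WT microglia and 3 were higher, with a median log2 difference of -1.13, against a median of -0.01 over all genes. Of all 20589 genes tested, 39.4% were lower and 39.5% higher. Of the 13 mitochondrial members 11 were lower, with a median of -0.86, and with copies added all 13 were lower, with a median of -0.94. Every complex took part: 38 of 39 nuclear members of complex I were lower, 4 of 4 of complex II, 9 of 9 of complex III, 15 of 17 of complex IV and 16 of 17 of complex V. Per kilobase of transcript, the median nuclear member of complex I stood at 40.2 CPM in WT microglia and 113 in WT astrocytes. That of complex V stood at 48.5 and 217, both on a scale normalised within each cell type. Cell markers differed too: all 10 oligodendrocyte, 9 endothelial, 8 mural, 7 fibroblast and 8 ependymal and choroid plexus markers were lower in microglia. All 9 border macrophage and monocyte and all 7 neutrophil markers were higher. On the scale within each cell type, oligodendrocyte sums were 3152 and 3294 CPM in WT microglia and 14595 and 14756 in WT astrocytes. What these markers contribute was not tested.

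Among the members lower in microglia, the largest differences were those of Ndufa12, an accessory subunit of complex I, at 27.0 ± 0.0185 CPM in microglia and 115 ± 9.37 in astrocytes (SD, n = 2, scale of the joint fit), a log2 difference of -2.08 ± 0.10 (adjusted p = 7.57e-13, edgeR). Uqcrfs1, the Rieske iron-sulfur protein of complex III, stood at 74.5 ± 0.750 and 281 ± 7.58 CPM (-1.91 ± 0.05). Ndufs5 differed by -1.87 ± 0.11, Atp5g3, which encodes the c subunit of the ATP synthase ring, by -1.85 ± 0.07, and Ndufc1 by -1.80 ± 0.18. The most abundant nuclear member, Atp5b, the catalytic beta subunit of the ATP synthase, differed by -1.13 ± 0.04, and Sdha, the flavoprotein subunit of complex II, by -0.43 ± 0.04.

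The 3 members higher in microglia were Cox6a2, Cox7a2l and Atp5g2. Cox6a2 (mm10, chr7:128205435-128206387), known as the heart and skeletal muscle isoform of cytochrome c oxidase subunit 6a, had 9.15 and 7.03 CPM in WT microglia and 0.209 and 0.0618 CPM in WT astrocytes. The groups lay far apart, but the astrocyte value rests on a handful of reads, so no fold is given. Cox7a2l, a factor in the joining of complexes III and IV, differed by 0.61 ± 0.08. Atp5g2, a second gene for the c subunit, differed by 1.28 ± 0.15 in its deposited row, but its pseudogene Gm10175, 100% identical over 645 bases, had 21.2 and 21.1 CPM in WT microglia and 70.7 and 57.2 in WT astrocytes. Gene plus copy came to 50.6 and 51.8 CPM in microglia and 84.1 and 75.8 in astrocytes, so the pair together was lower in microglia. At 99% identity and at least 1 CPM, Atp5g2, Cox7c and Ndufb4 were the 3 members with an expressed pseudogene copy, and Ndufb4 shares its sequence with the member Ndufb4c.

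Most other isoforms known for restricted expression were the reverse of Cox6a2. Cox4i2, an alternative subunit 4 known for its response to low oxygen, had 0.515 and 0.396 CPM in WT microglia and 4.73 and 4.21 in WT astrocytes. Ndufa4l2 had 2.09 and 3.34 against 10.1 and 8.41, and Cox6b2, known as the testis isoform, 1.16 and 1.06 against 8.21 and 7.20. Cox7a1 and Cox8b were under 0.42 CPM in every microglia library and at 1.17 to 7.14 CPM in the astrocyte libraries. Cox7b2 stayed under 1 CPM in every library, and Cox8c was listed at 0 in all 16.

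Rack1 knockout in microglia without the disease model was compared next. The 2 genomes went in opposite directions. Of 85 nuclear members tested 37 fell and 1 rose, with a median log2 difference of -0.19 against 0.04 over all genes. Over all genes, 15.9% fell and 17.7% rose. Up to 600 bases, genes that are not members had a median of -0.13 and nuclear members -0.18. From 1000 to 2000 bases the medians were 0.02 and -0.26. Of the 13 mitochondrial members 7 rose and 0 fell, with a median of 0.33. With copies added 9 rose, mt-Co3 and mt-Co2 joining them at 0.56 ± 0.04 and 0.56 ± 0.05. Summed over members, nuclear transcripts came to 5172 and 5008 CPM in WT and 4287 and 4314 in CKO, and mitochondrial ones to 8564 and 8117 in WT and 12021 and 11565 in CKO. The ratio of mitochondrial to nuclear CPM was 1.66 and 1.62 in WT and 2.80 and 2.68 in CKO, and the groups did not overlap in any of the 3 quantities. No test was made on these sums, since an exact two-sided permutation test of 2 libraries against 2 cannot go below p = 0.333.

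**Figure D2:**
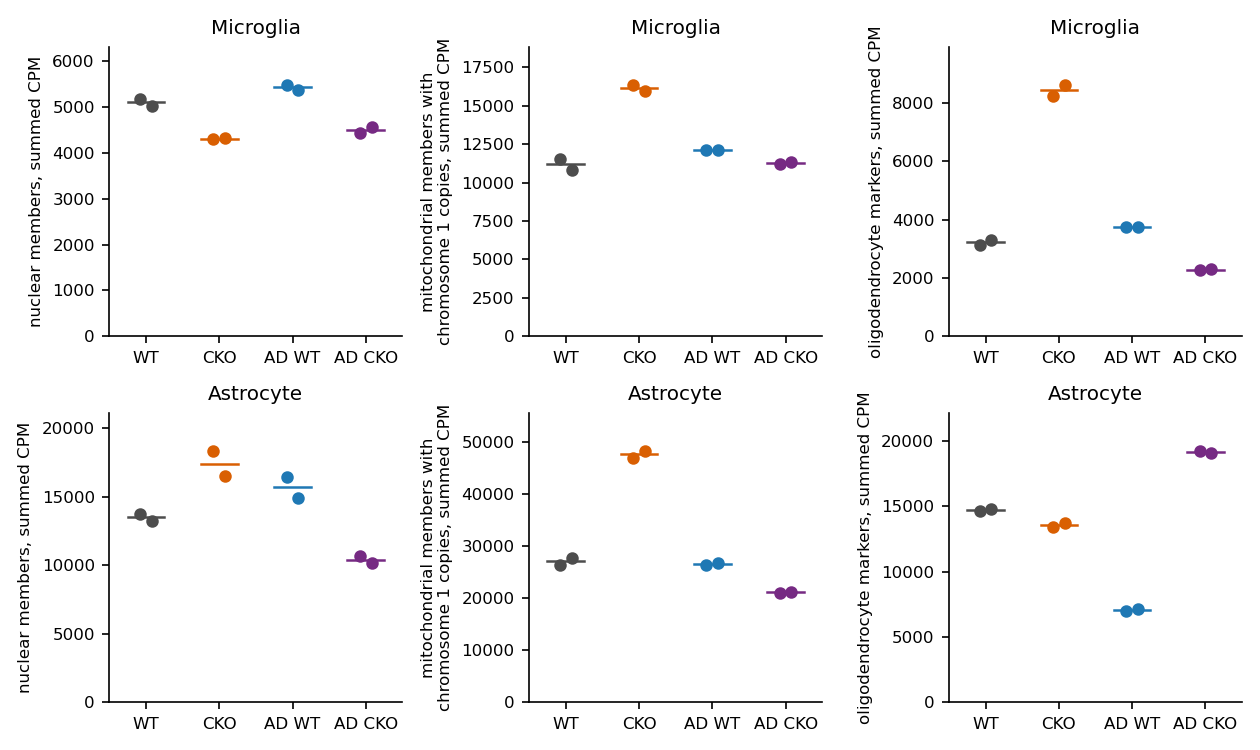
Points give, for each library, the summed CPM of nuclear members, of mitochondrial members with their chromosome 1 copies, and of the 10 oligodendrocyte markers, and horizontal lines give the mean of the 2 libraries of a group, with microglia in the upper and astrocytes in the lower panels. In microglia the nuclear sum is lower in CKO than in WT and the mitochondrial sum with copies, at 16354 and 15943 CPM, is higher than in the other 6 libraries, and in astrocytes that sum is highest in CKO at 46942 and 48244 CPM.

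The nuclear members that fell came from all 5 complexes. Complex II had 3 of 4 members lower, complex III 6 of 9, complex V 8 of 17, complex I 17 of 39 and complex IV 3 of 16. Ndufa9, an accessory subunit of the complex I stalk, had 87.8 and 84.6 CPM in WT and 59.1 and 54.8 in CKO. It fell by 0.60 on the log2 scale (-0.60 ± 0.06, adjusted p = 1.99e-08, edgeR). Uqcrc1, a core protein of complex III, had 185 and 195 CPM in WT and 144 and 145 in CKO (-0.40 ± 0.05), and Sdha had 324 and 335 against 248 and 256 (-0.39 ± 0.04). In each of these 3 genes both CKO libraries lay under both WT libraries, which the choice of Ndufa9 among the largest falls required. Ndufb2 (-0.52 ± 0.12), Uqcrh, the hinge protein of complex III (-0.46 ± 0.10), Atp5g1 (-0.40 ± 0.08) and Cox7c (-0.40 ± 0.13) were the other members with the largest falls. Cox5a, with 34.0 and 31.5 CPM in WT and 31.9 and 30.3 in CKO, did not pass the test (-0.08 ± 0.09, adjusted p = 0.551, edgeR), and the same holds for the deposited row of Atp5g2 (-0.31 ± 0.14, adjusted p = 0.0956, edgeR). With its copy Gm10175 added, Atp5g2 went from 50.6 and 51.8 to 37.3 and 40.2 CPM, groups that do not overlap, and this sum was not tested. Cox6a2 was the 1 nuclear member that rose, from 9.15 and 7.03 to 11.7 and 11.6 CPM (0.53 ± 0.14).

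Among the mitochondrial members, mt-Co1, the catalytic subunit of cytochrome c oxidase, had 2361 and 2307 CPM in WT and 3772 and 3777 in CKO (0.69 ± 0.03, adjusted p = 6.71e-16, edgeR). Of the complex I subunits, mt-Nd1 rose by 0.58 ± 0.04, mt-Nd4 by 0.50 ± 0.04, mt-Nd2 by 0.42 ± 0.06 and mt-Nd5 by 0.23 ± 0.04. The channel subunit mt-Atp6 rose by 0.44 ± 0.04, and mt-Cytb, the cytochrome b of complex III, by 0.33 ± 0.04. With copies added, 4 of the 13 did not pass: mt-Nd3 (0.25 ± 0.16, adjusted p = 0.307, edgeR), mt-Nd4l (0.07 ± 0.25, adjusted p = 0.868, edgeR), mt-Atp8 and mt-Nd6. The deposited row of mt-Atp8 was at -0.38 ± 0.36 (adjusted p = 0.506, edgeR). The gene mt-Nd6, the one protein gene on the other strand, had 37.6 and 34.8 CPM in WT and 35.6 and 34.4 in CKO (-0.05 ± 0.11, adjusted p = 0.774, edgeR). It overlaps mt-Nd5, and whether the counting used strand is not given in the sources used here.

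Cell markers moved in the same comparison. All 10 microglia markers fell, their sum going from 48484 and 49992 to 26434 and 26697 CPM. The oligodendrocyte sum went from 3152 and 3294 to 8238 and 8631 CPM, with 5 of 10 markers up and 2 down, most of it Mbp and Mobp, while Mog stayed at a mean of 3.34 and 3.89 CPM and Cldn11 at 0.536 and 0.608. Of 12 neuron markers 6 rose, to a sum of 33.8 and 34.6 CPM from 14.8 and 15.0. All 7 neutrophil markers rose, from sums of 229 to 246 CPM in WT to 625 to 626 in CKO, and 6 of 9 markers of border macrophages and monocytes rose, from 244 to 249 to 556 to 562 CPM. Of 10 astrocyte markers 6 rose and 1 fell, from 450 to 468 to 515 to 529 CPM, and 5 of 9 endothelial markers rose. Of 8 ependymal and choroid plexus markers 4 fell, from 894 to 931 to 398 to 400 CPM, as did all 4 erythroid markers tested. Their part in the change of the members was not tested.

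The disease model with Rack1 intact changed few nuclear members in microglia. Of 85 nuclear members 10 rose and 1 fell in AD WT against WT, with a median of 0.10 against -0.02 over all genes. Of all genes tested 10.7% rose and 8.62% fell, so the share of nuclear members that rose was near that of all genes. Of the 13 mitochondrial members 5 rose and 0 fell, beside the same shares of all genes, with a median of 0.02. The call count depended on single libraries: without WT replicate 2 the nuclear count was 7 and without WT replicate 1 it was 17, and the mitochondrial count was 2 without AD WT replicate 1, and 3 without AD WT replicate 2 or without WT replicate 2. Complex IV had 5 of its 16 nuclear members up. Cox6a2 had the largest rise, from 9.15 and 7.03 CPM in WT to 23.1 and 24.0 in AD WT (1.54 ± 0.13, adjusted p = 6.22e-10, edgeR). The liver-type paralogue Cox6a1 went from 101 and 95.8 to 137 and 135 CPM (0.47 ± 0.06). Ndufa1, an X-linked accessory subunit of complex I, went from 49.8 and 45.2 to 82.0 and 81.1 CPM (0.78 ± 0.07). Uqcr10 (0.42 ± 0.10) and Cox7a2l (0.37 ± 0.08) rose as well, and Uqcrc1 was the 1 member that fell (-0.30 ± 0.05). The summed nuclear CPM was 5476 and 5359 in AD WT. All 9 endothelial markers rose in this comparison, their sum going from 458 and 460 to 807 and 802 CPM, and 8 of 10 microglia markers fell and 1 rose, their sum going to 42204 and 42634 CPM. All 8 mural and all 7 neutrophil markers rose too. The part of these markers was not tested.

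Within the disease model members of both genomes were lower in the knockout microglia. Of 85 nuclear members 53 fell and 0 rose in AD CKO against AD WT, with a median of -0.28 against -0.00 over all genes. Of all genes tested 15.0% fell and 17.0% rose. Without AD WT replicate 1 the count was 32. Up to 600 bases, genes that are not members had a median of -0.33 and nuclear members -0.36. These medians were -0.08 and -0.30 from 600 to 1000 bases, and 0.02 and -0.24 from 1000 to 2000. They were 0.05 and -0.17 from 2000 to 4000, and -0.00 and -0.35 (2 members, by annotated length) over 4000. Complex I had 25 of 39 members lower, complex II 3 of 4, complex III 7 of 9, complex IV 9 of 16 and complex V 9 of 17. Of the mitochondrial members 7 fell and 1 rose, with a median of -0.21, 1 of the 7 being mt-Nd4l, which was listed at 0 in both AD CKO libraries and with its copy added no longer passed (-0.59 ± 0.25, adjusted p = 0.112, edgeR). Summed nuclear CPM was 5476 and 5359 in AD WT and 4427 and 4564 in AD CKO, and summed mitochondrial CPM 9121 and 8989 against 8182 and 8139. The mitochondrial to nuclear ratio was 1.67 and 1.68 in AD WT and 1.85 and 1.78 in AD CKO.

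Ndufa1 had the largest fall, from 82.0 and 81.1 to 42.0 and 47.1 CPM (-0.87 ± 0.07, adjusted p = 2.89e-10, edgeR), close to its WT level. Cox7a2l went from 44.4 and 41.7 to 26.3 and 24.9 CPM (-0.75 ± 0.09), Cox7c fell by 0.68 (-0.68 ± 0.13) and Cox6a1 went from 137 and 135 to 87.3 and 94.8 CPM (-0.57 ± 0.06). In Ndufa1, Cox7a2l and Cox6a1 both AD CKO libraries lay under both AD WT libraries, as the rule for naming the largest differences required. Cox6a2 fell from 23.1 and 24.0 to 15.3 and 18.0 CPM (-0.50 ± 0.12). Of the subunits followed in each comparison, Ndufa9 (-0.43 ± 0.06), Cox4i1 (-0.45 ± 0.05), Uqcrfs1 (-0.29 ± 0.07), Uqcrc1 (-0.26 ± 0.05) and Sdhb (-0.21 ± 0.05) fell, while Ndufs1 (-0.06 ± 0.06, adjusted p = 0.509, edgeR) and Ndufv1 (-0.18 ± 0.07, adjusted p = 0.0570, edgeR) did not pass. Among mitochondrial members mt-Nd6 fell by 0.61 (-0.61 ± 0.11), mt-Nd5 by 0.37 (-0.37 ± 0.04) and mt-Cytb by 0.28 (-0.28 ± 0.04), and mt-Nd1 rose by 0.16 ± 0.04. Of the 10 microglia markers 7 fell and 2 rose, from a sum of 42204 and 42634 to 28349 and 28186 CPM, and 9 of 10 oligodendrocyte markers fell, from 3759 and 3761 to 2268 and 2319. All 7 neutrophil markers, 8 of 10 astrocyte, 7 of 9 endothelial, 6 of 8 mural and all 4 tested erythroid markers fell, and 5 of 9 markers of border macrophages and monocytes rose. Their part was not tested.

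In microglia the knockout's effect differed between the 2 backgrounds for 8 of 13 mitochondrial and 8 of 85 nuclear members. The interaction, the effect in the disease model minus the effect without it, was negative for 8 mitochondrial members and positive for 0, with a median of -0.56. For nuclear members it was negative for 6 and positive for 2, with a median of -0.05, and without AD WT replicate 1 the nuclear count of 8 became 5. The nuclear members did not exceed the shares of all genes tested, 7.19% with a negative and 5.53% with a positive interaction. The largest mitochondrial one was that of mt-Co1, at -0.83 ± 0.05 (adjusted p = 2.01e-13, edgeR), its CPM being 2361 and 2307 in WT, 3772 and 3777 in CKO, 2714 and 2801 in AD WT and 2556 and 2457 in AD CKO. With copies added mt-Co2 (-0.60 ± 0.07) and mt-Co3 (-0.47 ± 0.05) passed as well. Among nuclear members the values were -1.02 ± 0.18 for Cox6a2, -0.61 ± 0.08 for Cox6a1, -0.58 ± 0.12 for Cox7a2l, -0.50 ± 0.09 for Ndufb9, -0.48 ± 0.11 for Ndufa1 and -0.28 ± 0.07 for Cox4i1, and 0.22 ± 0.07 for Atp5a1 and 0.21 ± 0.06 for Sdha. Of these 8 genes 4 are counted under complex IV, which has 16 of the 85 nuclear members tested. This grouping was made after the calls were seen and was not tested. Between the knockouts, AD CKO against CKO, 5 nuclear members rose and 2 fell, with a median of 0.04, beside 7.73% and 6.92% of all genes, and 9 mitochondrial members fell and 0 rose, with a median of -0.53. The nuclear count was 4 without CKO replicate 1, and without AD CKO replicate 2 it was 5, of which 2 rose. The nuclear members that rose included Cox6a2 (0.52 ± 0.13) and Sdha (0.30 ± 0.04), and mt-Co1 fell by 0.59 (-0.59 ± 0.03). Cell markers moved with both. In the interaction all 9 endothelial, all 7 neutrophil, 8 of 10 astrocyte, 6 of 10 oligodendrocyte, 6 of 12 neuron and 6 of 8 mural markers were negative, and 7 of 10 microglia and 4 of 8 ependymal and choroid plexus markers positive. In AD CKO against CKO 9 of 10 oligodendrocyte markers fell, with a median of -2.02, as did all 7 neutrophil, 7 of 9 border macrophage and monocyte and 7 of 10 astrocyte markers, while 3 microglia markers rose and 3 fell. Their part was not tested.

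**Figure D3:**
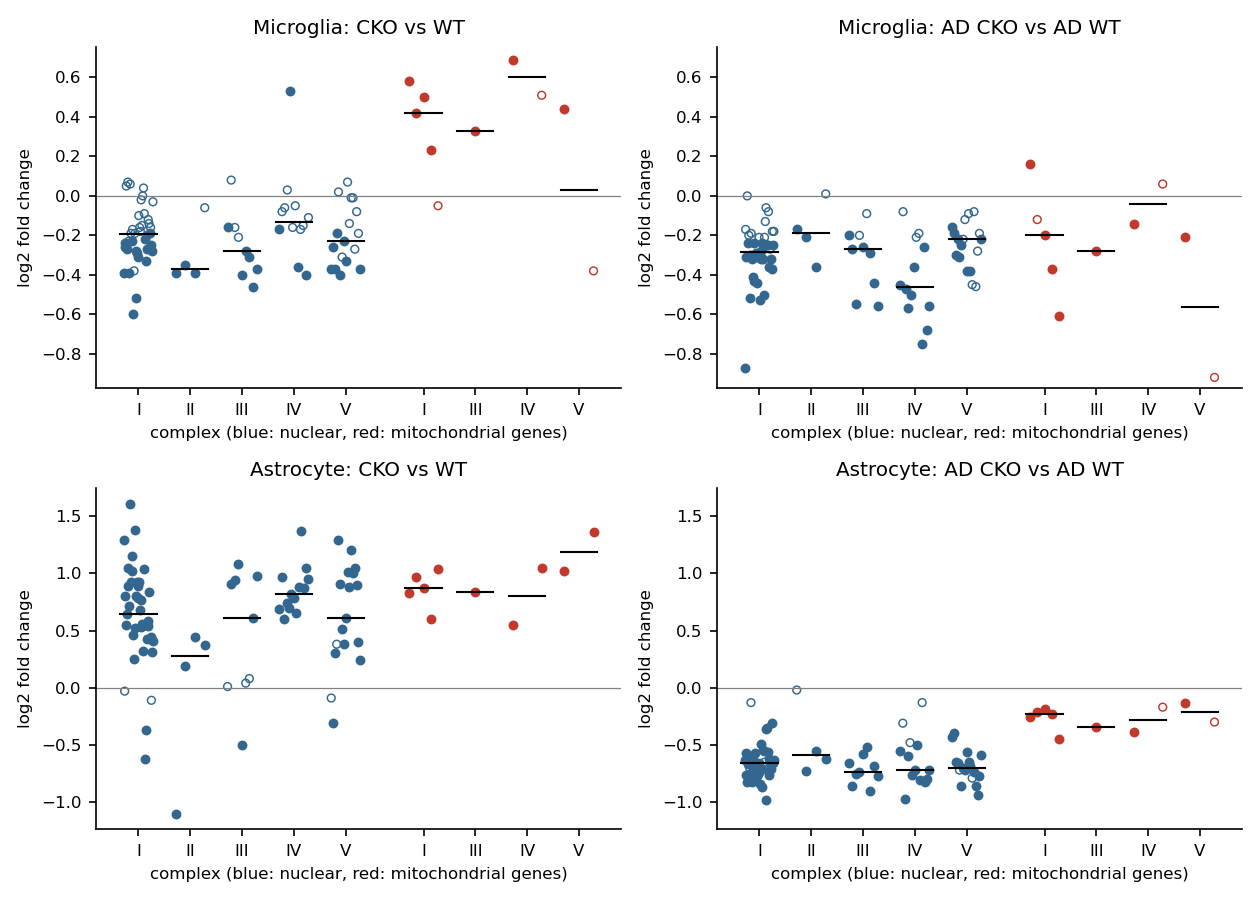
Each point is the log2 difference of 1 member, grouped by complex and genome, in the comparisons of the knockout with its control; filled points passed the test, open points did not, and black bars are medians of the points shown. Members under a mean of 5 CPM and mt-Co3, mt-Nd4l and mt-Nd3 are left out. Most mitochondrial points lie above 0 and most nuclear points under it in microglia CKO against WT, while in astrocytes nearly all points lie above 0 in CKO against WT and under 0 in AD CKO against AD WT, on the scale without the length offset, with which 42 nuclear members were lower and 19 higher in the former.

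In astrocytes from knockout mice without the disease model most members rose. Of 86 nuclear members tested 73 rose and 5 fell in CKO against WT, with a median of 0.70 against 0.01 over all genes. Of all genes tested 31.6% rose and 32.4% fell. Of the mitochondrial members 12 rose and 0 fell, with a median of 1.02. Summed nuclear CPM was 13757 and 13197 in WT and 18335 and 16467 in CKO, and summed mitochondrial CPM 18951 and 20635 in WT and 34178 and 35607 in CKO. The ratio of the 2 sums was 1.38 and 1.56 in WT and 1.86 and 2.16 in CKO, so the mitochondrial part was higher in proportion as well.

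Up to 4000 bases the change fell with transcript length, in members as in other genes. Among transcripts of up to 600 bases the median was 1.13 for other genes and 1.00 for the 21 nuclear members. From 600 to 1000 bases it was 0.82 and 0.70 (30 members), from 1000 to 2000 bases 0.34 and 0.37 (25 members), and from 2000 to 4000 bases -0.15 and -0.06 (6 members). Over 4000 bases it was -0.27 for other genes, while the 2 members annotated at that length, Atp5g1 and Ndufb2, rose by 0.91 ± 0.13 and 0.92 ± 0.14. The length used is that of the longest transcript of the best rank, 4715 bases for Atp5g1, whose pseudogene Gm10039 matches over 411. Whether the libraries hold transcripts of that length was not tested, here or for the 2 members over 4000 bases in the other comparisons. Across the 86 nuclear members, which are not independent replicates, the log2 difference had a Spearman correlation of -0.57 with length. Most subunits are short, and the rise of the median member was close to that of other genes of its length. With a per-library offset for the trend on length, 19 nuclear members were higher and 42 lower, with a median of -0.09, and 3 mitochondrial members were higher. What the length trend reflects was not tested.

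**Figure D4:**
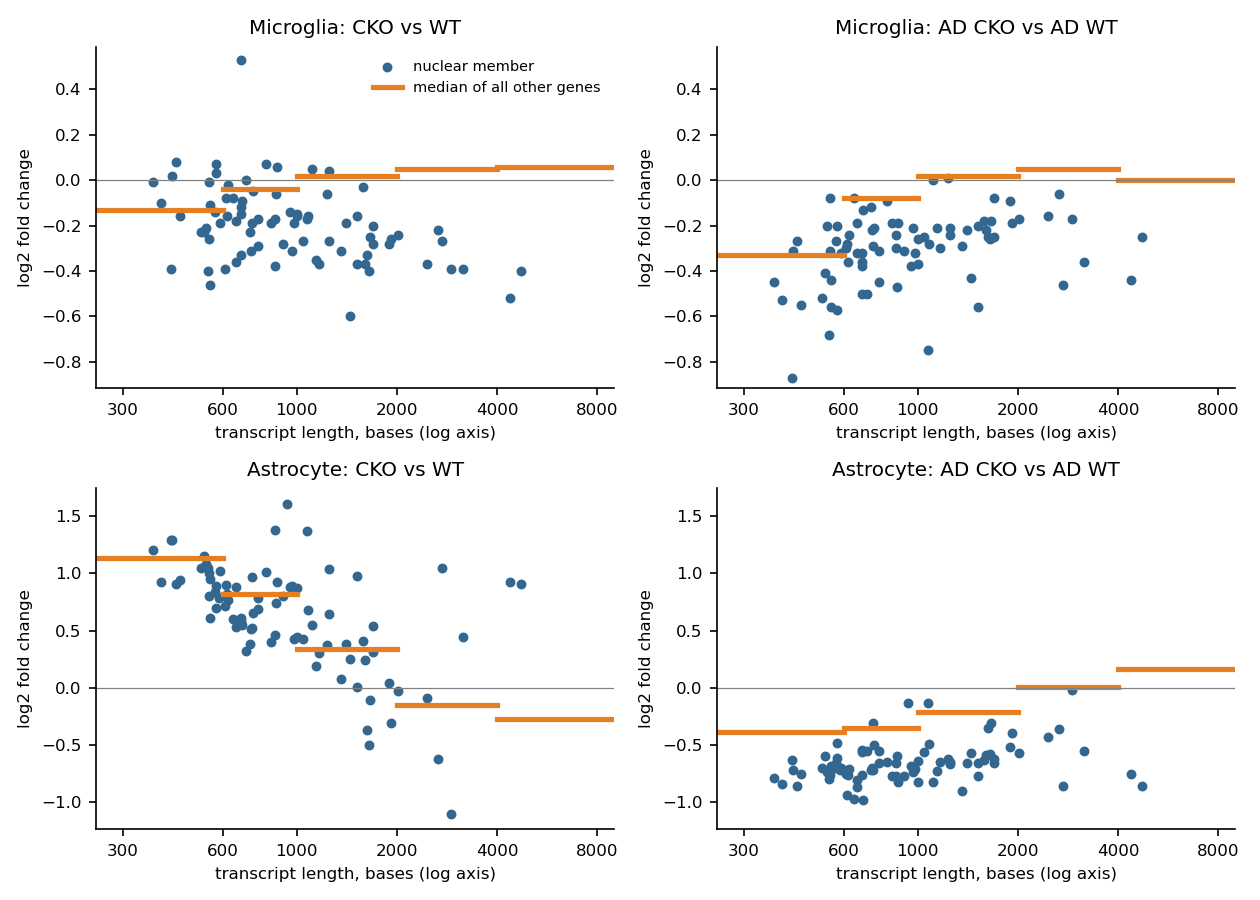
Each point is the log2 difference of 1 nuclear member against the length of its principal transcript in bases on a log axis, in microglia and astrocytes and in both comparisons of the knockout with its control, and orange bars are the medians of all other genes in the same length range. Members under a mean of 5 CPM are left out. In astrocytes the members lie around the bars in CKO against WT up to 4000 bases. The 2 members with the longest annotated transcripts lie above the bars there, at 0.91 and 0.92. In astrocyte AD CKO against AD WT most members lie under the bars.

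Among the members that fell in astrocyte CKO were Sdha, Ndufs1, Uqcrc1 and Atp5b, large catalytic or core subunits. Sdha (mm10, chr13:74322254-74350280), the subunit of complex II that oxidises succinate and works in the tricarboxylic acid cycle too, had 586 and 569 CPM in WT and 264 and 274 in CKO. It fell by 1.10 (-1.10 ± 0.04, adjusted p = 8.03e-16, edgeR), and by 0.99 (-0.99) with the length offset. The other 3 subunits of complex II rose, Sdhb by 0.19 ± 0.05 as deposited (-0.38 with the length offset), Sdhd by 0.37 ± 0.04 and Sdhc by 0.44 ± 0.05. Ndufs1, the largest iron-sulfur subunit of complex I, had 248 and 247 CPM in WT and 158 and 164 in CKO (-0.62 ± 0.05). Uqcrc1 had 435 and 438 against 314 and 302 (-0.50 ± 0.04), and Atp5b (-0.31 ± 0.04) fell as well. In Sdha, Ndufs1 and Uqcrc1 both CKO libraries lay under both WT libraries, as the rule for naming the largest differences required.

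Among the members with the largest rises, Cox7a2l had 28.8 and 27.9 CPM in WT and 75.5 and 71.4 in CKO (1.37 ± 0.07, adjusted p = 1.71e-13, edgeR), and 0.76 with the length offset. Ndufa4l2, a relative of the complex IV subunit Ndufa4, went from 10.1 and 8.41 to 30.9 and 25.2 CPM (1.61 ± 0.11), Ndufb1 rose by 1.38 ± 0.20, and mt-Atp8 by 1.36 ± 0.18 (0.14 with the length offset). The deposited row of mt-Co3 rose by 1.43 ± 0.29, and by 0.81 with its copy. Of the subunits followed in each comparison, Cox5a rose by 0.60 ± 0.14, Cox4i1 by 0.69 ± 0.15, Atp5g3 by 0.38 ± 0.06 and Ndufa9 by 0.25 ± 0.05. With the length offset those 4 were at -0.30, -0.12, -0.47 and -0.15, so their direction rests on the scaling. Cox6a2 was at 1.24 and 0.833 CPM in CKO. By complex, 35 of 39 nuclear members rose in complex I, 3 of 4 in complex II, 5 of 9 in complex III, 16 of 17 in complex IV and 14 of 17 in complex V.

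Cell markers moved here too. Of 10 astrocyte markers 9 fell and 1 rose, from a sum of 26528 and 26977 to 11854 and 12194 CPM. All but 1 of the 9 endothelial markers rose, from 1849 and 1838 to 4781 and 4730 CPM, 6 of 8 ependymal and choroid plexus markers rose, from 4670 and 4347 to 10617 and 9284 CPM, and 9 of 10 microglia markers rose, from 519 and 511 to 1305 and 1349 CPM. Of the other lists, 7 of 12 neuron, 7 of 8 mural, 7 of 9 border macrophage and monocyte, 6 of 7 neutrophil and 6 of 7 tested lymphocyte markers rose. No listed marker was at 0 in all libraries. Their part in the rise of the members was not tested.

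With the disease model alone, many nuclear and few mitochondrial members changed in astrocytes. In AD WT against WT 46 nuclear members rose and 1, Sdha, fell (-0.24 ± 0.04), with a median of 0.34 against 0.03 over all genes, beside 20.0% of all genes that rose and 18.0% that fell. Of the mitochondrial members 1 rose, mt-Nd6 (0.23 ± 0.07), and 1 fell, mt-Nd3 (-0.60 ± 0.18), which with its copy was at -0.06 ± 0.08, and the count of 2 ran from 1 to 4 when a library was left out (1 without either AD WT replicate, 4 without WT replicate 2). Summed nuclear CPM was 13757 and 13197 in WT and 16457 and 14888 in AD WT, and summed mitochondrial CPM was 19273 and 19951 in AD WT, within the range of the WT libraries. Ndufa4l2 had the largest rise among members over 5 CPM, at 0.83 ± 0.12, followed by Cox7a2l (0.78 ± 0.07), Atp5g1 (0.60 ± 0.13), Ndufa1 (0.57 ± 0.07) and Cox4i2 (0.56 ± 0.15). The count of 47 ran from 26 (without WT replicate 2) to 66 (without AD WT replicate 2), and with the length offset 12 were higher and 11 lower. Medians of other genes and nuclear members were 0.40 and 0.41 up to 600 bases, 0.32 and 0.33 from 600 to 1000, 0.19 and 0.28 from 1000 to 2000, 0.00 and 0.12 from 2000 to 4000, and -0.12 and 0.53 (2 members) over 4000. All 8 ependymal and choroid plexus markers rose and all 10 oligodendrocyte markers fell in this comparison, 9 of 10 microglia, 6 of 8 mural and all 5 erythroid markers rose, and their part was not tested.

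In the disease model the knockout went with lower levels of nearly every nuclear member in astrocytes. Of 86 nuclear members 74 fell and 0 rose in AD CKO against AD WT, with a median of -0.68 against -0.03 over all genes. Over all genes, 27.0% fell and 25.1% rose. Of the 13 mitochondrial members 8 fell, with a median of -0.26, and with copies added 12 fell. Summed nuclear CPM was 16457 and 14888 in AD WT and 10664 and 10132 in AD CKO, and summed mitochondrial CPM 19273 and 19951 against 15977 and 16384. The fall was wider than that of other genes of the same length: medians of other genes and members were -0.39 and -0.72 up to 600 bases, -0.35 and -0.71 from 600 to 1000, -0.21 and -0.63 from 1000 to 2000, 0.01 and -0.49 from 2000 to 4000, and 0.16 and -0.81 (2 members) over 4000. With the length offset 78 nuclear members were lower and 0 higher, with a median of -0.42, while the mitochondrial count was 2.

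All 9 nuclear members of complex III fell, as did 35 of 39 in complex I, 15 of 17 in complex V, 12 of 17 in complex IV and 3 of 4 in complex II. Uqcrfs1 had 388 and 375 CPM in AD WT and 212 and 196 in AD CKO (-0.90 ± 0.05, adjusted p = 6.53e-13, edgeR). Cox5a, a subunit of cytochrome c oxidase, had 192 and 160 against 93.9 and 86.2 (-0.97 ± 0.14), and Ndufc2 181 and 148 against 86.1 and 80.5 (-0.98 ± 0.14). In these 3 genes both AD CKO libraries lay under both AD WT libraries, as the rule for naming the largest differences required. Atp5mpl (-0.94 ± 0.14) and Ndufb6 (-0.87 ± 0.08) were the next largest. Large catalytic or core subunits fell as well. Uqcrc1 was at -0.58 ± 0.04, Atp5a1 at -0.43 ± 0.04 and Atp5b at -0.40 ± 0.04. Ndufs1 was at -0.36 ± 0.05 and Ndufv1 at -0.31 ± 0.05. Sdha was the exception, at 480 and 498 CPM in AD WT and 474 and 489 in AD CKO (-0.02 ± 0.04, adjusted p = 0.708, edgeR), while Sdhb, its iron-sulfur partner, fell by 0.73 (-0.73 ± 0.05). Cox7a2l and Ndufa4l2 did not pass either, both at -0.13. Of 10 astrocyte markers 9 fell, from a sum of 25391 and 26257 to 16027 and 16175 CPM, and all 10 oligodendrocyte markers rose, from 6961 and 7163 to 19232 and 19088 CPM. Of 10 microglia markers 7 rose and 2 fell, 6 of 9 endothelial and 5 of 9 border macrophage and monocyte markers rose, and all 5 erythroid markers fell. Their part was not tested.

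In astrocytes most nuclear members were higher in CKO against WT and lower in AD CKO against AD WT on the deposited scale, while with the length offset more were lower than higher in both (42 and 19, then 78 and 0). The interaction was negative for 80 nuclear members and positive for 2, with a median of -1.38, and negative for 12 mitochondrial members and positive for 0, with a median of -1.18. Across the table, 28.3% of genes were negative and 29.5% positive. With the length offset it was negative for 60 nuclear members and positive for 7, and negative for 3 mitochondrial ones. The 2 positive members were Sdha (1.08 ± 0.06, adjusted p = 1.36e-12, edgeR) and Ndufs1 (0.26 ± 0.07). Ndufb1 (-2.15 ± 0.29), Atp5e (-2.01 ± 0.31), Atp5k (-1.99 ± 0.41) and Ndufa1 (-1.91 ± 0.10) had the most negative nuclear ones. AD CKO against CKO, which uses the same knockout libraries, gave 80 nuclear members down and 2 up, with a median of -1.02, beside 28.4% and 31.4% of all genes, and 12 mitochondrial members down and 0 up, with a median of -1.19. The 2 that rose were again Sdha (0.84 ± 0.04) and Ndufs1 (0.19 ± 0.05). In the interaction 9 of 10 oligodendrocyte and 8 of 10 astrocyte markers were positive and 9 of 10 microglia, 6 of 7 neutrophil, 6 of 8 ependymal and choroid plexus and all 5 erythroid markers negative, and their part was not tested.

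**Figure D5:**
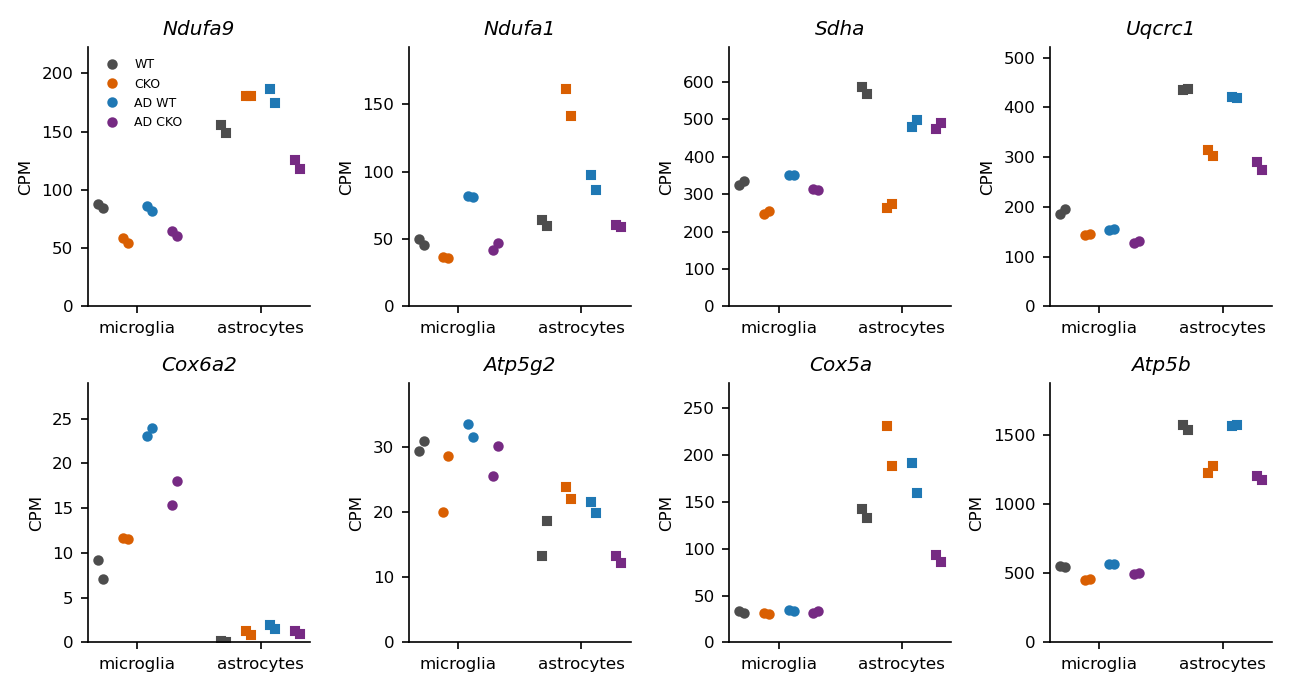
CPM of 8 members in each library by genotype, with circles for microglia and squares for astrocytes. Sdha in astrocytes is at 264 and 274 CPM in CKO and at 474 to 586 CPM in the other 6 libraries, and Cox6a2 in microglia is at 23.1 and 24.0 CPM in AD WT and at 18.0 CPM or less elsewhere.

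Other genes of the pathway were read from lists, with all values on the deposited scale unless the length offset is named. Their counts stand beside 31.6% of all genes that rose and 32.4% that fell in astrocyte CKO against WT, 25.1% and 27.0% in astrocyte AD CKO against AD WT, and 17.7% and 15.9% in microglia CKO against WT. The tricarboxylic acid cycle feeds NADH and succinate to the chain. Of 17 of its genes 14 fell and 0 rose in astrocyte CKO against WT, with a median of -0.46. This was on the side of Sdha and the reverse of most members on the deposited scale. With the length offset more nuclear members were lower than higher there. Medians of genes that are not members went from 1.13 up to 600 bases to -0.27 over 4000. Named after their values were seen, Ogdh was at -1.17 ± 0.05 and the citrate synthase gene Cs at -1.13 ± 0.05. In AD CKO against AD WT 15 of the 17 fell and 1 rose. In microglia CKO against WT 7 fell and 1 rose, with a median of -0.13. Of 79 mitochondrial ribosomal protein genes, whose products translate the mitochondrial messages, 61 rose and 1 fell in astrocyte CKO and 0 rose and 69 fell in astrocyte AD CKO against AD WT, while in microglia CKO 4 rose and 4 fell. Of 50 assembly factors 28 rose and 10 fell in astrocyte CKO, 1 rose and 37 fell in astrocyte AD CKO against AD WT, and 7 rose and 3 fell in microglia CKO. In microglia AD CKO against AD WT, where 17.0% of all genes rose and 15.0% fell, these lists did not fall with the nuclear members. There 11 assembly factors rose and 2 fell, 11 mitochondrial ribosomal protein genes rose and 2 fell, and 2 tricarboxylic acid cycle genes rose and 4 fell. Of biogenesis regulators 3 rose and 0 fell. Among the regulators of mitochondrial biogenesis, 16 in astrocytes, 3 rose and 7 fell in astrocyte CKO. Named after their values were seen, the coactivators Ppargc1a and Pprc1 were at -0.87 ± 0.06 and -1.80 ± 0.15, the transcription factors Gabpa and Nrf1 at -0.80 ± 0.08 and -0.66 ± 0.08, and Yy1 at 0.78 ± 0.09. In microglia CKO 4 of 14 rose and 2 fell. The list of 19 carriers and subunits outside the name rule, which shares Atp5md with the members, had 2 down and 0 up in microglia CKO and 9 up and 5 down in astrocyte CKO. Its ATP synthase inhibitor Atpif1 rose in astrocyte CKO by 1.28 ± 0.14, and by 0.29 with the length offset.

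The promoters of the nuclear members were searched for 3 motifs known from genes of the respiratory chain, on both strands, from 250 bases before to 50 after the start in the RefSeq tables (GRCm38.p6). Of 92 members 70 were matched, under 69 gene symbols. The core of the NRF-1 motif, GCATGCGC, was in 10 of 69 promoters (14.5%) and in 3.05% of 27025 promoters of all genes. The YY1 core AAGATGGCG was in 7 (10.1%) and in 1.64%, and in 6 of the 7 it lay 23 to 36 bases after the start. The ETS core CCGGAAGT was in 5 (7.25%) and in 4.31%. At least 1 of the 3 was in 21 promoters (30.4%) and in 8.47% of all. Stretches of 4 are shown, for 1 member each of complexes I, II, III and V, with the matched bases in capitals, 5′ to 3′ on the gene's strand. Only matches before the start were eligible. The YY1 core shown for Atp5j, 88 bases before the start, is therefore the 1 of the 7 outside the range of 23 to 36. A second start of Atp5j had no match.
Ndufa11, NRF-1 core, chr17:56717672-56717741, plus strand: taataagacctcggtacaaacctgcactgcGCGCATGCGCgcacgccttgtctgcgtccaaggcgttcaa
Sdhb, NRF-1 core, chr4:140961187-140961254, plus strand: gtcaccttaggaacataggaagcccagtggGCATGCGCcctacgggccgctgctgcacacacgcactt
Uqcrh, ETS core, chr4:116075071-116075111, minus strand: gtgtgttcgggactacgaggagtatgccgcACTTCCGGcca
Atp5j, YY1 core, chr16:84835026-84835094, minus strand: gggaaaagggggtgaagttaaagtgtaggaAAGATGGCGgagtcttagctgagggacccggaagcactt
In Ndufa11 the NRF-1 core is present on both strands, in overlapping positions. These 4 genes all fell in astrocyte AD CKO against AD WT, as did most nuclear members and 27.0% of all genes tested. Ndufa11 was at -0.76 ± 0.10, Sdhb at -0.73 ± 0.05, Uqcrh at -0.68 ± 0.15 and Atp5j at -0.65 ± 0.07. All 4 rose in astrocyte CKO against WT on the deposited scale, as did most nuclear members and 31.6% of all genes. Sdhb turned from 0.19 to -0.38 there with the length offset. Whether the motifs bear on these changes was not tested. In microglia CKO against WT Sdhb, Uqcrh and Ndufa11 fell, at -0.35 ± 0.05, -0.46 ± 0.10 and -0.26 ± 0.09, and Atp5j did not pass (0.07 ± 0.06, adjusted p = 0.418, edgeR). A match is a description of these letters and not a measured site.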

How the data were processed

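Total RNA (TRIzol, DNase I) was amplified with a SMART-Seq v4 low-input kit from 10 ng and sequenced in pairs of 150 bases, per the labels' protocols. The submitters' processing notes name fastp, HISAT2, StringTie and mm10, and the counting step and strand are not given in the sources used here. The deposited tables hold estimated counts per gene, 1 table per cell type, not all of them whole numbers, and they were rounded for testing. Per cell type, 8 libraries entered edgeR 4.0.16 (R 4.3.3): TMM scaling, filterByExpr, robust quasi-likelihood F-test, Benjamini-Hochberg adjustment over 17318 (microglia) or 20116 (astrocyte) genes, threshold 0.05. A joint fit of all 16 libraries compared the wild types. Standard errors are the absolute log2 difference divided by the square root of F. CPM are unrounded counts over TMM-scaled totals, except in the joint comparison. Replicates differed by more than sampling noise in every group (chi-square per degree of freedom 3.54 to 6.18). The pipeline was tested on simulated data.

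Lengths, biotypes and coordinates come from GENCODE M21 (mm10), promoters from RefSeq. A gene's length is that of its principal transcript, and the longest was taken where several shared the best rank. The length offset is a per-library smooth trend of log2 CPM deviation on log2 principal transcript length. Alternatives were RLE factors, DESeq2 1.42.0, no filter, scaling on nuclear genes, a replicate block, the length offset and leaving out each library. The offset on the longest transcript and the merging of chromosome 1 copies of at least 99% identity were chosen after seeing the data. Members and lists were chosen with earlier results of these data known. Genes named are, per comparison, the 5 largest differences in each direction among members passing, with a mean of at least 5 CPM and groups that do not overlap, plus all mitochondrial members, a set of subunits followed in each comparison, restricted isoforms, Atpif1 and Rack1. Other genes, and the values of these genes where the rule did not name them, were chosen after their values were seen. Not every gene this rule selects is reported here.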

Additional observations from a re-analysis of the deposited data

Results flagged for a closer look

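Results are listed here because the effect of the knockout differed between mice with and without the disease model, by the interaction term of the edgeR fit (adjusted p under 0.05 over all genes tested). In microglia 8 nuclear and 8 mitochondrial members passed, the nuclear share being no higher than that of all genes tested. The log2 differences of effects were 0.22 for Atp5a1, 0.21 for Sdha and -1.02 for Cox6a2 among the named nuclear genes, and -0.83 for mt-Co1 (-0.85 with its copy), -0.70 for mt-Nd4, -0.65 for mt-Atp6, -0.61 for mt-Cytb, -0.60 for mt-Nd5, -0.56 for mt-Nd6, -0.55 for mt-Nd2 and -0.42 for mt-Nd1. In astrocytes 82 nuclear and 12 mitochondrial members passed. The values were 1.08 for Sdha and 0.26 for Ndufs1, and -2.15 for Ndufb1, -2.01 for Atp5e, -1.99 for Atp5k and -1.91 for Ndufa1. Among mitochondrial members, from the deposited rows and in parentheses with copies added for mt-Co3, mt-Nd3 and mt-Co2, they were -1.92 for mt-Co3 (-1.27 with its copy), -1.66 for mt-Atp8, -1.48 for mt-Nd6, -1.45 for mt-Nd3 (-1.63), -1.23 for mt-Co2 (-1.26), -1.18 for mt-Nd2, -1.18 for mt-Cytb, -1.15 for mt-Atp6, -1.09 for mt-Nd1, -1.06 for mt-Nd4, -0.94 for mt-Co1 and -0.84 for mt-Nd5. With the length offset 3 of these 12 passed, mt-Nd5 (-0.53), mt-Nd4 (-0.47) and mt-Co1 (-0.46), while mt-Atp8 was at 0.02, mt-Nd3 at 0.16 and mt-Atp6 at 0.01.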

How the results depend on the processing

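Of 278 counts of members recomputed under an alternative, 249 stayed within 1.5 times the value reported, 26 moved further and 3 changed their leading direction. All 22 counts stayed within 1.5 times under RLE factors, under DESeq2 and under scaling on nuclear genes. Of 5451 values of single genes 55 changed sign, counted where the gene passed in the reported fit or in the alternative. With n = 2 the spread of a group rests on 2 libraries, and a group left with 1 library was assumed to vary like the others. The cause of each change was not tested.

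Without a filter on low counts the nuclear count for microglia AD WT against WT was 17 in place of 11. Leaving out 1 library gave 7 to 17 for that count and 2 to 4 for its mitochondrial count of 5, 32 to 43 for nuclear members in microglia AD CKO against AD WT (53), 4 to 5 in AD CKO against CKO (7, with 2 up and 3 down without AD CKO replicate 2), 5 to 12 for the microglia interaction (8), and in astrocyte AD WT against WT 26 to 66 nuclear (47) and 1 to 4 mitochondrial members (2). In that last comparison mt-Co2 was at 0.21 without WT replicate 2 and at -0.05 with all libraries. The replicate numbers shared by the groups did not pair the libraries: correlations of same-numbered deviations ran from -0.03 to 0.048. With the number as a replicate block, the nuclear count for astrocyte AD WT against WT was 71, and the 19 other counts with a block moved by no more than 1.5 times (no block was fitted between cell types). Merging the chromosome 1 copies gave 1 mitochondrial member in astrocyte AD WT against WT, 0.56 for mt-Co3 in microglia CKO against WT, and for mt-Nd4l -0.42 in astrocyte AD CKO against AD WT, -1.46 in AD CKO against CKO, -1.45 in the interaction and -1.17 between the wild types.

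The length offset acted on the astrocyte results, and values follow for the principal and then the longest transcript. Nuclear counts were 61 and 61 (19 up and 42 down, then 26 and 35) for CKO against WT and 23 and 24 for AD WT against WT. Mitochondrial counts were 3 and 3 for CKO against WT, 4 with the longest transcript for AD WT against WT, 2 and 0 for AD CKO against AD WT, 7 and 7 for AD CKO against CKO, and 3 and 2 for the interaction. In CKO against WT the sign changed for Ndufa9 (-0.15, -0.22), Sdhb (-0.38, -0.39), Atp5g3 (-0.47, -0.42), Cyc1 (-0.35, -0.29), Cox4i1 (-0.12, -0.18), Uqcrfs1 (-0.37, -0.43), Cox6b2 (-0.18, -0.24) and Atp5g2 (-0.33, -0.37), for Cox5a with the principal (-0.30), and for mt-Nd3 (-0.04) and mt-Nd6 (-0.02) with the longest. In AD WT against WT it changed for Atp5g3 (-0.11, -0.11), Atp5b (-0.12, -0.14), mt-Nd6 (-0.13, -0.15) and, with the longest, Cox4i1 (-0.13). In AD CKO against AD WT it changed for mt-Nd2 (0.01, 0.03), mt-Atp6 (0.17, 0.18) and, with the principal, Atpif1 (0.19). In AD CKO against CKO it changed for Cox4i2 (0.08, 0.13), with the principal for Uqcrc1 (0.11), and with the longest for Atp5b (0.12) and Ndufv1 (0.03). In the interaction it changed for Atp5b (0.17, 0.27), Ndufv1 (0.20, 0.29), mt-Atp8 (0.02, 0.07), mt-Atp6 (0.01, 0.08) and mt-Nd3 (0.16, 0.22), with the principal for Atp5g3 (0.04) and Uqcrc1 (0.33), and with the longest for mt-Co2 (0.01).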

Other observations

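The cytosolic ribosomal protein genes gave a further list beside the members. In microglia CKO against WT 46 of 83 fell and 3 rose, with a median of -0.29, beside 15.9% and 17.7% of all genes, and in AD CKO against AD WT 65 fell and 1 rose, with a median of -0.42, beside 15.0% and 17.0%. In astrocytes 79 of 83 rose and 0 fell in CKO against WT, with a median of 1.19, beside 31.6% and 32.4% of all genes and a median of 1.13 over genes of up to 600 bases that are not members. In AD CKO against AD WT 41 fell and 0 rose, with a median of -0.34, beside 27.0% and 25.1% of all genes and a median of -0.39 over such short genes. Both short-gene medians leave out the members only. They can hold genes of this list and are no independent comparison for it. Between the wild types the list and the members went apart: 75 of 84 ribosomal protein genes were higher in microglia and 3 lower, with a median of 0.96, beside 39.5% and 39.4% of all genes, where the nuclear members had a median of -1.13.

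The mitochondrial ribosomal RNAs were counted too. In microglia mt-Rnr1 had 150 and 156 CPM in WT, 254 and 210 in CKO, 151 and 169 in AD WT and 96.8 and 98.7 in AD CKO. In astrocytes it had 543 and 544, 1262 and 1170, 360 and 326, and 290 and 284 CPM, so that AD WT lay under WT, while mt-Rnr2 in the same libraries had 2530 and 2559, 7339 and 6572, 2890 and 2658, and 2385 and 2292.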
